A study of Trachemys scripta with 4 samples.

Results

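The genes described here are the regulators that set up and build skeletal muscle: the progenitor factors *PAX3* and *PAX7*, the determination factors *MYF5* and *MYOD1*, the differentiation factors *MYOG*, *MYF6*, *MEF2A* and *MEF2C*, and the fusion protein gene *MYMK*. The 9 members were picked out by gene symbol from a table of 15289 genes measured in embryonic peripheral nerves of the turtle *Trachemys scripta*. Rows were found for 8 of the 9, and *PAX3* was not analysed here. All 8 passed the filter of at least 1 TPM in at least 2 columns, as did 15100 genes in all. TPM gives a level per gene length, scaled so that each column sums to 1000000.

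In vertebrate embryos PAX3 and PAX7 are paired-box proteins that keep muscle progenitors in an undifferentiated, dividing state, and PAX7 also marks the satellite cells of later muscle. MYF5, MYOD1, MYF6 and MYOG form the myogenic family of basic helix-loop-helix (bHLH) proteins, which bind E-box sites in DNA as pairs with E proteins. MYF5 and MYOD1 commit cells to the muscle fate, and MYOG drives the exit into differentiated muscle cells. MYF6 acts in determination and again in maturing fibres. MEF2 proteins are their DNA-binding partners at muscle genes and are also used by neurons and the vascular endothelium, and myomaker, the product of *MYMK*, allows myoblasts to fuse.

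RNA was sequenced from peripheral nerve, parts of the brachial and sacral plexus, of embryos at stage 19 (st.19) and stage 21 (st.21). The eggs came from females given oxytocin to lay, no group carried a genotype or treatment that the other lacked, and both plexuses were combined because single nerves gave too little RNA. Each stage had 1 sample, deposited as 2 columns labelled R1 and R2 and here called replicate 1 and replicate 2. The labels do not say what R1 and R2 stand for. With 1 sample per stage, every stage difference is without a replicate check and without a p-value. In bulk tissue, a change in the number of muscle cells and a change in RNA per cell cannot be told apart. The paper states that dissecting such small nerves was difficult, so that neighbouring tissue could have contaminated the samples and altered the measured levels. How much neighbouring muscle entered each sample was not tested.

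Whole reads were recovered from the deposited values, and the columns held between 2129599 and 4353821 reads on genes, with the st.21 columns about as deep as one another and shallower than those of st.19. Within a stage, the paired columns agreed more closely than sampling noise alone would allow, with a chi-square per gene of 0.433 at st.19 and 0.33 at st.21 over genes with 5 to 500 reads, where independent libraries give 1. Each pair of columns was for that reason treated as a single sample. The st.19 columns differed in scale: 1 ribosomal RNA gene held 18.9% of the TPM in replicate 1 and 44.2% in replicate 2, against 0.145% and 0.317% at st.21. At nearly equal reads, every member's st.19 TPM was higher in replicate 1. The labelled tissue was recognisable by its glia, since all 11 Schwann cell markers looked for were in the table, with a summed level of 1818 to 2667 TPM at st.19 and 5177 to 5246 TPM at st.21.

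Of the 8 regulators, 6 were more than 2-fold higher at st.21, 0 were more than 2-fold lower, and the MEF2 genes stayed within 2-fold. *MYF5*, *MYF6* and *PAX7* were 18.4-, 17.1- and 10.6-fold higher on the deposited scale, and *MYOG*, *MYOD1* and *MYMK* 4.66-, 3.51- and 2.96-fold higher. At 1 read in each st.19 column, *MYF5* and *MYF6* could meet the authors' filter of 1 CPM only through the st.21 columns. Their presence in the table thus favours a higher value at st.21, and both are in the counts given here. Among all 15100 genes, 17.3% were past the 2-fold limit in this direction and 9.68% in the other. More than 4-fold higher were 4 of the 8 members, against 3.48% of all genes. The median log2 fold change was 2.02 over the members and 0.06 over all genes. All 6 stayed above the limit without each column, which is no repeat, since both columns of a stage stand for 1 sample. They also stayed above it under each scaling tried, the lowest value being 1.04 for *MYMK* when the TPM total held protein-coding genes alone. That total lowered the median of all genes to −0.47, and every other scaling moved it by less. Under it, 1045 of 14368 genes were past the limit upwards.

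**Figure D1:**
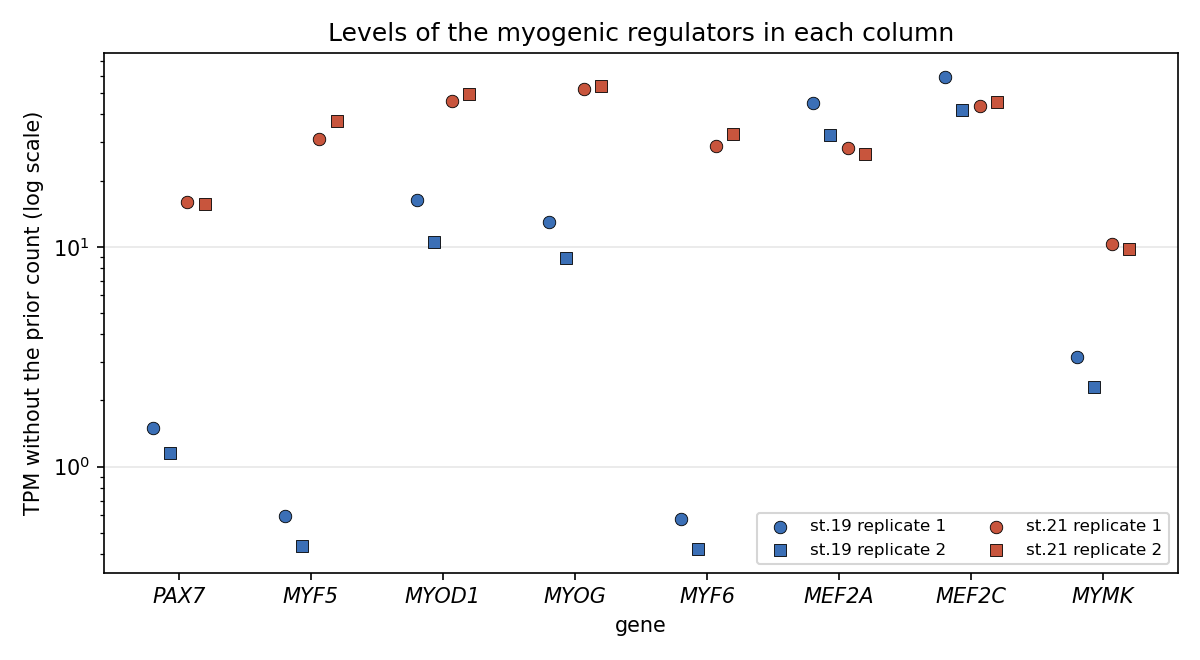
Levels of the 8 regulators in each column, as TPM with the authors' prior count removed, on a log axis. Points are single columns, circles for replicate 1 and squares for replicate 2. The genes past the 2-fold limit have higher points at st.21, while the *MEF2A* points are lower at st.21 and the *MEF2C* points overlap. Both points of a stage stand for 1 sample.

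*PAX7*, the progenitor and satellite cell factor, lies on chromosome 19 from 15491652 to 15644810 of the CAS_Tse_1.0 assembly, the build of all coordinates here. Its reads numbered 18 and 19 at st.19 and 93 and 87 at st.21, although the st.21 columns were the shallower ones. Its deposited TPM was 1.74 and 1.32 at st.19 and 16.3 and 15.8 at st.21. The log2 fold change of 3.41 was exceeded by 69 of the 15100 genes. From the reads of the replicate 1 columns the fold was 10.7, with a 95% interval of 6.41 to 18.8. Intervals for single genes are exact binomial intervals of the reads, which were not counted by molecule, and cover counting error only.

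*MYF5*, the first of the family to be switched on in mouse and chick somites, and *MYF6* were at the edge of detection at st.19. *MYF6* lies on chromosome 1 from 71123795 to 71125363 and *MYF5* follows at 71132304 to 71134324, 6940 bases further on, with 0 annotated genes between them. *MYF5* had 1 read in each st.19 column, then 25 and 29 reads at st.21. *MYF6* likewise had 1 read in each st.19 column, then 24 and 26 reads. Both genes thus passed from near absence to a clear signal, and neither overlaps another annotated gene.

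Deposited levels of *MYF5* were 2.30 and 1.62 TPM at st.19 and 32.4 and 38.7 TPM at st.21, and those of *MYF6* 2.24 and 1.57 TPM, then 30.3 and 33.9 TPM. Most of the st.19 values came from the prior count that the authors added before the logarithm: without it, *MYF5* had 0.596 and 0.433 TPM and *MYF6* 0.580 and 0.422 TPM. The log2 fold changes of 4.20 and 4.09 accordingly understate the reads. In the replicate 1 columns the fold was 51.8 for *MYF5*, with an interval from 8.48 to 2126, and 49.7 for *MYF6*, with an interval from 8.11 to 2045. As each of these values rests on 1 read at st.19, the lower bounds say more than the folds themselves. The bounds cover counting error only, and neither the scaling of the columns nor differences between embryos.

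*MYOD1* and *MYOG* were already present at st.19 and were moderately higher at st.21. *MYOD1*, on chromosome 4 from 103005703 to 103009493, had 53 and 47 reads at st.19 and 72 and 75 reads at st.21. Its deposited TPM was 17.2 and 11.2, then 46.8 and 50.6, and the log2 fold change came to 1.81. The interval of the replicate 1 log2 ratio, 0.96 to 2.03, held the 2-fold limit at its lower end.

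*MYOG*, the differentiation factor, on chromosome 4 from 131166554 to 131174741, had 35 and 33 reads at st.19 and 68 in both st.21 columns. Its level was 14.0 and 9.58 TPM at st.19 and 52.9 and 54.9 TPM at st.21. The log2 fold change of 2.22 was exceeded by 381 genes. Its replicate 1 log2 ratio was 2.01 (interval 1.40 to 2.64), so that the change of *MYOG* lay above the 2-fold limit over the whole interval. For *MYOD1*, 739 genes had a larger log2 fold change.

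*MYMK*, which encodes the membrane protein myomaker, lies on chromosome 17 from 17423695 to 17437089. It had 7 reads in each st.19 column and 11 and 10 reads at st.21, or 4.46 and 3.20 TPM and then 11.5 and 10.9 TPM. The log2 fold change was 1.56. With so few reads the replicate 1 log2 ratio of 1.70 had an interval from 0.20 to 3.31, which held the 2-fold limit. That interval takes the TPM scale as given, and the deposited log2 fold change was 1.04 under the protein-coding total. *MYMX*, the gene of the second fusion protein myomixer, was not analysed here.

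The MEF2 genes were the most read members at both stages and did not share the change of the others. *MEF2C*, on chromosome 6 from 52790003 to 52934964, had 809 and 783 reads at st.19 and 287 and 288 reads at st.21. Its deposited levels of 59.6 and 42.0 TPM, then 43.8 and 45.7 TPM overlapped between the stages. The log2 fold change was −0.16, and it turned to 0.09 without replicate 1 of st.19, so that no direction can be given for *MEF2C*.

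*MEF2A*, on chromosome 10 from 77398194 to 77549427, had 356 and 350 reads at st.19 and 107 and 97 reads at st.21. Its deposited levels were 45.6 and 32.6 TPM at st.19 and 28.5 and 26.8 TPM at st.21, and the log2 fold change was −0.48. The log2 ratio of reads was −0.68 in replicate 1, with an interval from −1.01 to −0.37, and −0.29 in replicate 2. Without replicate 1 of st.19 the deposited value was −0.24. Under the protein-coding total the value was −1.01, just past the limit, and *MEF2A* was then the only member called lower. Of all 14368 genes kept under that total, 3590 were past the limit downwards. *MEF2A* overlaps LOC117884577 and *MEF2C* overlaps LOC117878795 in the annotation, and reads from shared stretches may have been assigned to the wrong one of them.

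**Figure D2:**
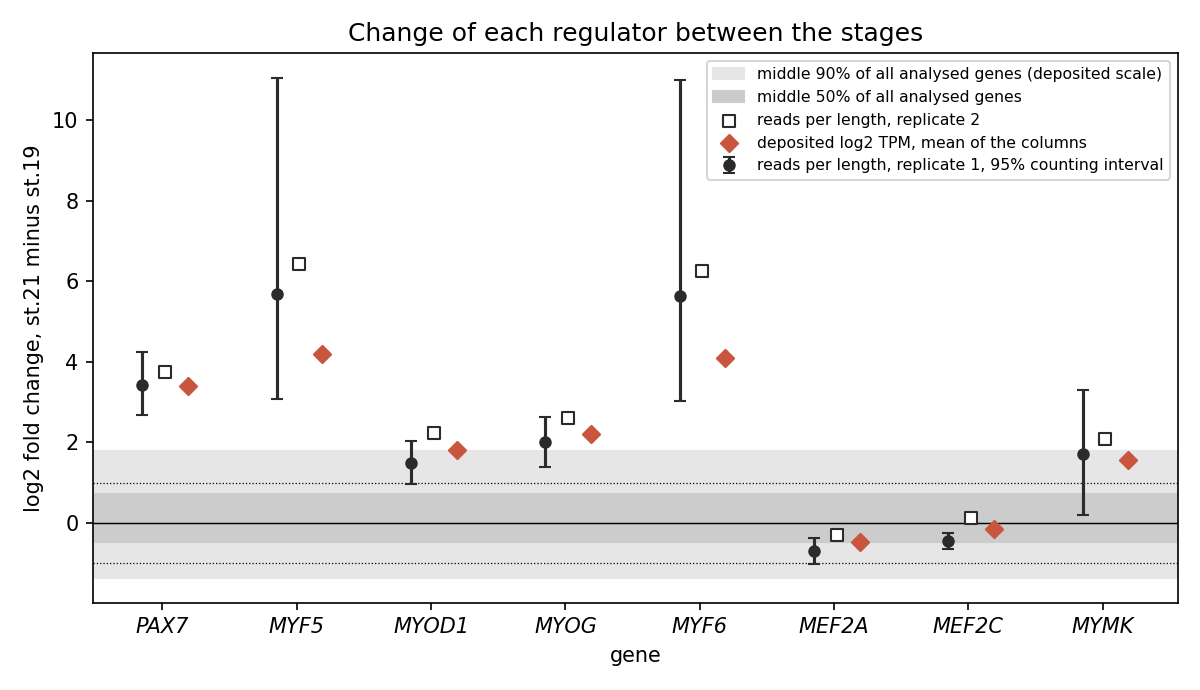
Log2 fold change of each regulator, st.21 minus st.19: circles with bars are the replicate 1 reads per length with their 95% counting interval, open squares the replicate 2 reads, and diamonds the deposited log2 TPM. Grey bands hold the middle 90% and 50% of all 15100 genes, and dotted lines mark 2-fold. *PAX7*, *MYF5* and *MYF6* lie well above the bands, and *MYOG* lies closer above them. *MYOD1* and *MYMK* lie near the upper edge of the wider band, and *MEF2A* and *MEF2C* inside that band.

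The order of the members by level, per length and with the prior count removed, differed between the stages. At st.19 *MEF2C* and *MEF2A* led, with 74.9% and 75.8% of the summed TPM of the 8 members, followed by *MYOD1*, *MYOG*, *MYMK*, *PAX7*, *MYF5* and *MYF6*. At st.21 *MYOG* came first, then *MYOD1*, *MEF2C*, *MYF5*, *MYF6*, *MEF2A*, *PAX7* and *MYMK*, and the MEF2 pair held 28.1% and 26.6%. In replicate 1 of st.19, the level of *MEF2C* was 1.31 times that of *MEF2A* (interval 1.16 to 1.49), and *MEF2A* stood 2.76 times above *MYOD1* (2.07 to 3.76). *MYOG* was 4.07 times above *MYMK* (1.78 to 10.9). *MYOD1* and *MYOG* did not differ beyond counting error there, nor did neighbours from *MYMK* down to *MYF6*. At st.21 the only neighbours that did differ were *MEF2A* and *PAX7*, at a ratio of 1.75 (1.32 to 2.34). Counting error can thus swap neighbours among the top 6, and *PAX7* with *MYMK*. Members further apart in the order were not compared in this way.

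Within the bHLH family the make-up changed from a pair of factors to all 4. *MYOD1* made up 53.7% and 52.1% of the summed TPM of the 4 genes in the st.19 columns, and *MYOG* 42.4% and 43.7%. *MYF5* held 1.96% and 2.14% and *MYF6* 1.91% and 2.08%. At st.21 *MYOG* held 32.9% and 31.1%, *MYOD1* 29.2% and 28.7%, *MYF5* 19.6% and 21.4%, and *MYF6* 18.3% and 18.7%. These shares rest on 90 and 82 reads at st.19 and 189 and 198 reads at st.21, and they do not depend on how the columns were scaled. The summed level of the 4 genes was 30.4 and 20.2 TPM at st.19 and 158 and 173 TPM at st.21.

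**Figure D3:**
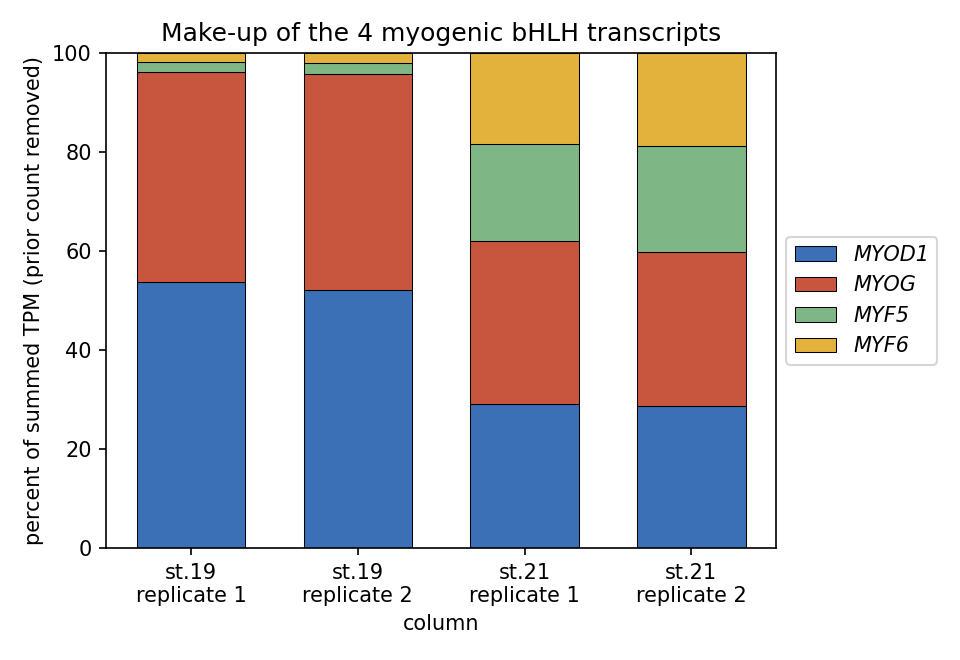
Share of each of the 4 myogenic bHLH transcripts in their summed TPM (prior count removed), 1 bar per column. *MYOD1* and *MYOG* fill nearly the whole bar in both st.19 columns, while *MYF5* and *MYF6* hold between 18.3% and 21.4% each at st.21.

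Progenitor and determination factors were then set against differentiation factors as ratios within a column, which are free of the scaling between columns. *MYOG* was lower at st.21 relative to both *PAX7* and *MYF5*, and *MYMK* relative to *MYF5*. Per length, *MYOG* stood at 8.61 and 7.69 times the level of *PAX7* in the st.19 columns and at 3.24 and 3.46 times in the st.21 columns. The change in this log2 ratio was −1.41 in the replicate 1 reads, with an interval of −2.44 to −0.41 from the conditional odds ratio, and −1.19 on the deposited scale. Against *MYF5*, *MYOG* went from 21.7 and 20.4 times to 1.68 and 1.45 times, a change of −3.69 (−9.09 to −0.94). On the deposited scale, where the prior count lifts *MYF5* at st.19, that change was −1.98.

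*MYMK* changed from 2.11 and 2.0 times the level of *PAX7* to 0.642 and 0.624 times. This change of −1.72 on the log2 scale had an interval of −3.42 to 0.09 and was not established at this depth. Against *MYF5*, *MYMK* went from 5.31 times in both st.19 columns to 0.334 and 0.262 times, a change of −3.99 (−9.54 to −0.69), or −2.63 on the deposited scale. The ratio of *MYF6* to *MYF5* was 0.974 in both st.19 columns and 0.935 and 0.873 at st.21, but a single read of each gene at st.19 leaves an interval of −6.41 to 6.29 around its change of −0.06. *MYF6* against *PAX7* was 0.387 and 0.367, then 1.80 and 2.08, and the change of 2.22, or 0.69 on the deposited scale, had an interval of −0.60 to 7.65 that also held 0. *MEF2C* against *MEF2A* stayed between 1.29 and 1.72, with an interval of −0.14 to 0.62.

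Of 4 further ratios chosen after the values were seen, *MYOD1* against *PAX7* changed by −1.93 (−2.90 to −0.99) and *MYOD1* against *MYF5* by −4.20 (−9.59 to −1.48). *MYF6* against *MYOG* changed by 3.63 (0.87 to 9.03). *MYF5* against *PAX7* changed by 2.27, with an interval of −0.54 to 7.71 that held 0. On the deposited scale these 4 changes were smaller, at −1.60, −2.39, 1.87 and 0.79. *MYF6*, counted here with the differentiation factors, was thus higher at st.21 relative to *MYOG*.

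**Figure D4:**
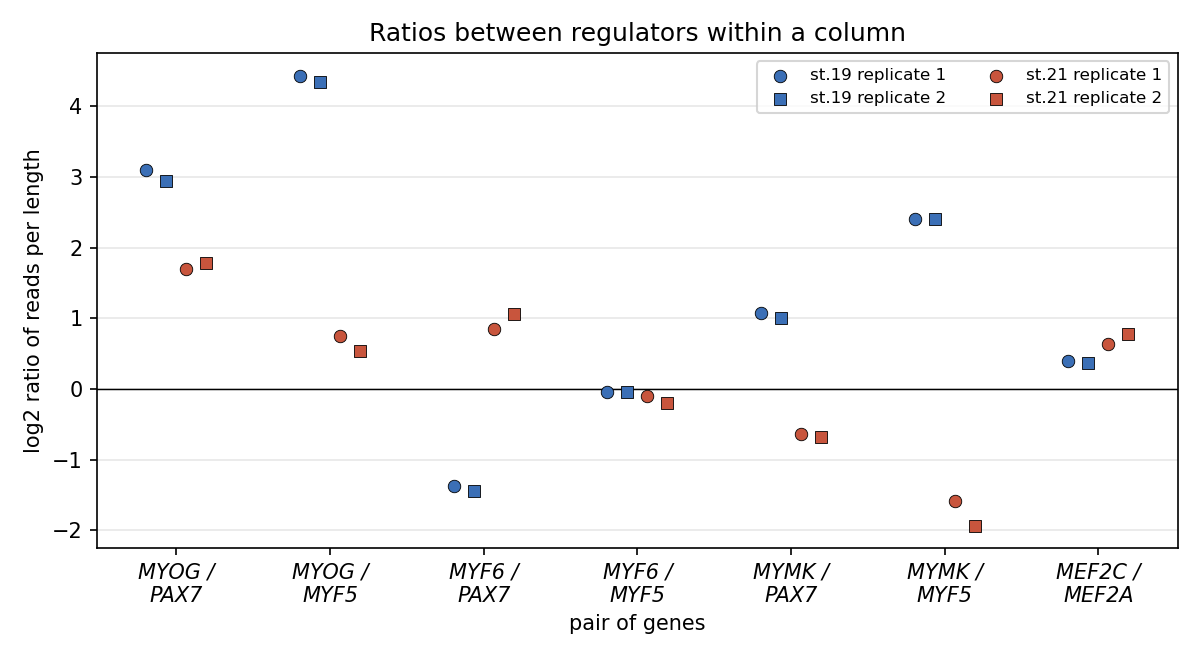
Log2 ratio of reads per length between pairs of regulators in each column, circles for replicate 1 and squares for replicate 2. The *MYOG* and *MYMK* ratios are lower at st.21 than at st.19, *MYF6* to *PAX7* is higher, and *MYF6* to *MYF5* and *MEF2C* to *MEF2A* move little.

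The genes that these factors act on in muscle were higher at st.21 by more than most of the factors. Of 18 genes analysed from a list of 23 for the contractile apparatus, calcium release and energy supply, 17 were past the 2-fold limit upwards and 0 downwards, with a median log2 fold change of 4.17. Their summed level was 226 and 154 TPM at st.19 and 4305 and 4278 TPM at st.21. *CASQ1*, *ACTA1* and *ATP2A1*, for the calcium store protein, skeletal actin and calcium pump, had the largest values, from 5.75 to 6.93. On the deposited scale *MYF5*, at 4.20, was the only regulator above this median. With the prior count removed *MYF5*, at 6.05, and *MYF6*, at 5.94, were above the list's 4.21. Both rest on 1 read in each st.19 column. Their replicate 1 log2 intervals start lower, at 3.08 and 3.02, so counting error can change this order. How much of the regulators' change goes with the amount of muscle RNA in the samples was not tested.

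Genes for muscle assembly and the muscle side of the synapse were next, with 12 of 14 past the limit upwards, 0 downwards and a median of 2.91. *XIRP1*, for an actin-binding protein of the adhesion sites, had 14 and 15 reads at st.19 and 102 and 101 reads at st.21, and a log2 fold change of 3.88. *LMOD3*, for a nucleator of thin filaments, had 6 reads in each st.19 column and 48 and 51 at st.21, a log2 fold change of 3.83. *SMYD1*, for a methyltransferase needed for myosin assembly, had 3.65. *XIRP1* overlaps LOC117871998 and *SMYD1* overlaps *FABP1* in the annotation. *CHRNA1*, the acetylcholine receptor alpha subunit, was lowest of the list at 0.33.

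Regulators upstream of the family were mixed, with 6 of 15 analysed genes past the limit upwards, 0 downwards and a median of 0.44 that became −0.09 under the protein-coding total. *MSC*, for the bHLH repressor musculin, had 20 and 15 reads at st.19 and 106 and 95 at st.21. Its TPM was 7.15 and 4.03, then 69.5 and 64.7, and the log2 fold change 3.64. *TBX1*, a T-box factor of head muscle progenitors, had 1.97, and *LBX1*, a homeobox factor of progenitors that migrate into the limb, had 1.28 on no more than 7 reads in any column.

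Among partners and cofactors, 5 of 14 were past the limit upwards and 0 downwards, with a median of 0.52 that became −0.00 under the protein-coding total. *RBM24*, for an RNA-binding protein of muscle splicing, had 4.90 and 3.55 TPM at st.19, then 32.5 and 30.8 TPM, and a log2 fold change of 2.92. *VGLL2* and *TEAD4*, for a TEAD cofactor and its partner, had 1.98 and 1.80. The E protein genes, whose products pair with the bHLH factors, were flatter, at 0.60 for *TCF3*, 0.23 for *TCF12* and −0.02 for *TCF4*.

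Inhibitors of myogenesis were not lower as a group, as 6 of 19 were past the limit upwards, 1 downwards, and their median was 0.81. *MSTN*, the gene of myostatin, a secreted brake on muscle growth, went from 7 and 8 reads to 25 in each st.21 column, a log2 fold change of 2.66. *SNAI2*, a repressor that occupies E-boxes, had 2.19, and *HDAC7*, a class II histone deacetylase that binds MEF2, had 1.48. *ID4*, for a protein that sequesters E proteins, was the one below the limit, at −1.02, while *ID1* and *ID3* had 0.93 and 0.96. The log2 ratio of reads of *ID4* was −1.28 in replicate 1 and −0.79 in replicate 2, so only the first was past the limit.

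Progenitor genes were split in direction. Of 8 genes on the surface of or acting in progenitors and satellite cells, 4 were past the limit upwards and 1 downwards, with a median of 1.08. *ITGA7*, for the laminin receptor of muscle, had 53.9 and 35.5 TPM, then 211 and 205 TPM, and a log2 fold change of 2.25. *DMRT2*, a transcription factor of the dermomyotome, and *CALCR*, a receptor of resting satellite cells, had 1.76 and 1.60 with at most 10 reads in any column. *CXCR4*, a chemokine receptor of migrating cells, was lower, at −1.07. It had 41 and 40 reads at st.19 and only 5 and 10 at st.21. Its log2 ratio of reads was −1.98 in replicate 1 and −0.43 in replicate 2, and only the first of these was past the limit. Of 12 fusion and adhesion genes 4 were past the limit upwards and 0 downwards, and the median of −0.30 turned to 0.09 without replicate 1 of st.19. *CDH15*, for M-cadherin, had 89 and 79 reads at st.19 and 183 and 178 at st.21, a log2 fold change of 2.38, and the cell surface receptors *CDON* and *BOC* had 1.23 and 1.19.

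**Figure D5:**
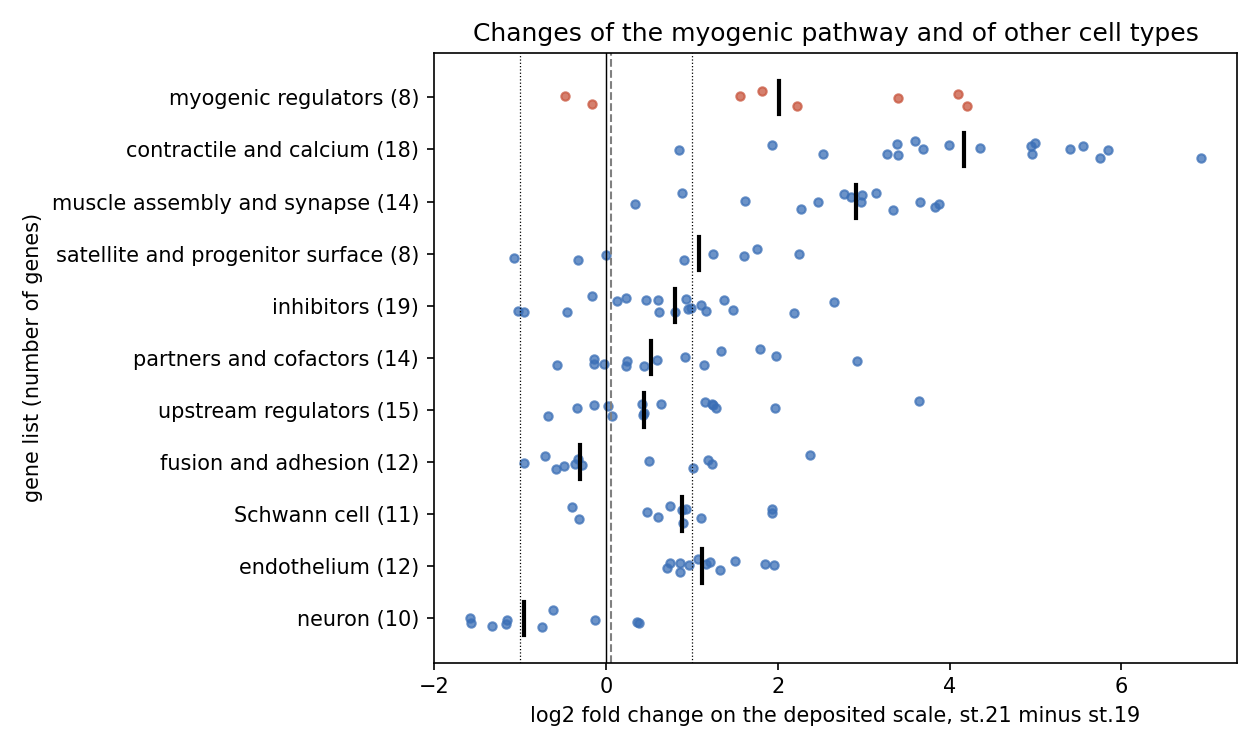
Log2 fold change on the deposited scale for each analysed gene (points) and the list median (black bars), with the number of genes in brackets. Dotted lines mark 2-fold and the dashed line the median of all genes, 0.06. The contractile list lies farthest to the right, at a median of 4.17, and the neuron list is the one centred well below 0, at −0.95.

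Markers of other cell types moved at the same time. All 12 endothelial genes, of which *SOX18* and *CDH5* had the highest levels, had positive values, with 7 past the limit and a median of 1.12, and their summed level was 113 to 160 TPM at st.19 and 315 to 322 TPM at st.21. Of 10 neuron genes, of which *NEFL* and *TUBB3* had the highest levels, 0 were past the limit upwards and 5 downwards. Their median was −0.95 and their summed level 5320 to 7711 TPM, then 4834 to 4918 TPM. *NEFL*, at 0.39, and *PRPH*, at 0.36, were the 2 neuron genes with positive values, and 8 had negative ones. Since *MEF2A* and *MEF2C* are used by both of these cell types, their levels have more than 1 possible source, and the part of each was not tested. The 6 connective tissue genes, with *COL1A1* and *COL3A1* at the top, had a median of 1.80, with 3 past the limit upwards. The Schwann cell list had a median of 0.89 and 3 of 11 past the limit upwards. These medians depended on the scaling: quantile normalization gave 0.92 for connective tissue and 0.36 for Schwann cells, and the protein-coding total gave 1.27 for connective tissue, 0.59 for endothelium and 0.36 for Schwann cells. The neuron median was −1.46 and −1.48 under these scalings.

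*PAX7* is also expressed in neural crest and dorsal neural tube. The 8 analysed markers of those cells went both ways, with 4 higher and 4 lower, 2 past the limit upwards and 1 downwards, and a median of 0.06, or −0.47 under the protein-coding total. Over all genes, 17.3% were past the limit upwards and 9.68% downwards. *FOXD3* and *SOX10*, the markers at the highest level, had log2 fold changes of 1.11 and 0.90. Both are also in the Schwann cell list, so their values are not particular to neural crest. *SNAI2* is also counted among the inhibitors and *ZIC1* among the upstream regulators. The 4 lower markers were *TFAP2A*, *TFAP2B*, *ZIC1* and *ZIC2*. Of 5 melanocyte genes analysed from a list of 9, 4 were past the limit upwards, *PMEL* among them, and *KIT* was past it downwards. Of these 4, *DCT* had only 2 or 3 reads in every column. The replicate 1 log2 interval of *TYRP1*, −0.41 to 2.05, held 0. The list median was 1.12, or 0.59 under the protein-coding total. Heart muscle was at the edge of detection: 5 of its 7 markers were not analysed here, *MYL7* had 6 and 7 reads at st.19 and 0 in both st.21 columns, and *TBX5* had 2 or 3 reads in every column. The median of these 2 was −0.26 on the deposited scale. It was 1.03 with the prior count removed and *MYL7* put at 3 reads in each st.21 column, so that value depends on the reads put in. Smooth muscle genes, led by *SMTN* and *ACTA2*, had a median of 0.65, or 0.12 under the protein-coding total, with 2 of 6 past the limit upwards. What share of any regulator's change goes with these cell types was not tested.

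The genes nearest to *PAX7* over the 4 columns of deposited log2 TPM, by Euclidean distance, were *CHRNB1*, an acetylcholine receptor subunit gene, at 0.12, the chemokine gene *CXCL14* at 0.23 and *SMYD1* at 0.30. *CHRNB1* had 3 reads in each st.19 column and 23 and 21 reads at st.21, and a log2 fold change of 3.31. *PEAR1*, *ANPEP* and *TGM2* were nearest to *MYOG*, at 0.11, 0.16 and 0.24, with log2 fold changes of 2.13, 2.32 and 2.01. Such nearness means a like level and a like change on the deposited scale, prior count included, in 1 sample per stage. *CXCL14* had 1 read in each st.19 column and 14 and 12 reads at st.21. Most of its st.19 level therefore came from the prior count, and its nearness to *PAX7* depends on that count. For *CHRNB1*, the st.19 prior counts of 2.861 and 2.729 were nearly as large as its 3 reads. The nearness of *CHRNB1* to *PAX7* thus depends on the prior count as well.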

How the data were processed

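The deposited values are log2 TPM per gene. RNA was polyA-selected and libraries were made with a stranded mRNA kit. The authors used HISAT2 for alignment (CAS_Tse_1.0, single-end), featureCounts for reads per gene, and edgeR 3.42.4 to keep genes at 1 CPM or more in 2 columns. Their log2 scale holds a prior count, here found to be 1.179 to 2.861 reads, and the deposited columns were not scaled to each other. Whether counting used strand is not given in the sources used here.

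Whole reads were recovered by finding, for each gene, the length up to 150000 nt at which all 4 columns give whole reads (within 0.0001). This held for 100% of 15289 genes, and the recovery was tested on simulated data. Coordinates and biotypes come from RefSeq, where 15266 symbols matched. Fold changes are st.21 minus st.19 means of deposited log2 TPM, called past 2-fold. Intervals (95%) are Clopper-Pearson for a gene and conditional for an odds ratio. The number of unused columns was 0.

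Members and lists were chosen with earlier results of these data known. Named genes were all members, the 3 largest changes of each pathway list, the 2 highest markers of each other cell type and the 3 genes nearest to *MYOG* and *PAX7*. The E protein genes, *ID1*, *ID3*, *ID4*, *CHRNA1* and *CXCR4* were named after their values were seen, and some genes this rule picks are not reported here. Computation used scipy 1.17.1, numpy 2.4.6 and pandas 2.3.3 under Python 3.11.15, with matplotlib 3.10.9 for plots.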

Additional observations from a re-analysis of the deposited data

How the results depend on the processing

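No paired analysis was possible because both columns of each stage stand for 1 sample and the results come from no test. Alternatives were median centring, quantile normalization, a protein-coding total, the authors' effective library sizes, log2(TPM + 1), other filters, a 4-fold limit and leaving out each column. Removing the prior count was added after seeing the data. The count of members past the limit stayed at 6 higher in each of these except the 4-fold limit, with 4. The other filters could not change it, since all 8 members were above 5 TPM in both st.21 columns. Leaving out a column could not repeat it, since both columns of a stage stand for 1 sample. The count over all genes did not stay the same. Among the scalings and left-out columns it ran from 1045 of 14368 with the protein-coding total to 3800 of 15100 without replicate 1 of st.19. The count of lower members was 0 except for 1 (*MEF2A*) with the protein-coding total, where 3590 of all 14368 genes were lower. That total, which lowers the median of all genes from 0.06 to −0.47, moved the list medians to −0.0861 for upstream regulators, −0.0041 for partners and cofactors, 0.28 for inhibitors, −0.83 for fusion and adhesion, 0.55 for progenitor surface, 2.38 for assembly and synapse and 3.64 for contractile genes. Leaving out 1 column in turn gave fusion and adhesion medians from −0.56 to 0.0895. For *MYF5* and *MYF6*, the log2 fold change without the prior count was 6.05 and 5.94. Depth limits *MYF5*, *MYF6* and *MYMK* most, with 1, 1 and 7 reads per st.19 column.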
